A study of Homo sapiens with 16 samples.

Results

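The insulin-like growth factor (IGF) binding proteins and the proteins that carry insulin and IGF signals into the cell were followed here in HepG2 cells, a human hepatoma line, through 10 genes: IGFBP1, IGFBP2, IGFBP3, IGFBP4, IGF2, IGF1R, IGF2R, INSR, IRS1 and IRS2. They were chosen by the gene symbol that the platform annotation gives each probe set, which found 18 probe sets of the 22283 on the array. Of these, 15 listed a member alone and read 9 genes, among 11963 genes with a probe set of their own. The other 3 listed IGF2 together with INS-IGF2, a read-through transcript of the neighbouring insulin and IGF2 genes, so their signal is given as shared and IGF2 is left out of every count of genes.

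Insulin and the IGFs bind related receptors at the cell surface. Once occupied, the insulin receptor and the IGF1 receptor phosphorylate the insulin receptor substrates, which pass the signal on to PI3-kinase and AKT, and AKT keeps the FOXO transcription factors out of the nucleus. In the circulation nearly all IGF is held by binding proteins, and the liver is the main source of IGFBP1, whose gene is shut down by insulin and switched on by fasting, glucocorticoids and several kinds of cell stress. HepG2 cells secrete IGFBP1 in culture and are a common model for its regulation.

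Cells had been transduced with an adenovirus carrying GPI-PLD, the phospholipase D that cleaves the glycosylphosphatidylinositol anchor of membrane proteins, or with a control adenovirus carrying LacZ, which encodes beta-galactosidase. They were cultured for 12 h or 6 h, which gave 4 groups of 4 arrays: GPI-PLD at 12 h, LacZ at 12 h, GPI-PLD at 6 h and LacZ at 6 h. Every group carried an adenovirus, and no cells without virus were analysed here, so a difference between 12 h and 6 h cannot be told apart from the course of the transduction and of the culture itself. The target put on each array had been produced from 10 microgram of total RNA. Nothing in the labels separates biological from technical replicates within a group. Each p-value rests on the scatter of arrays within groups, pooled over the 4 groups, and the 4 arrays of a group may all stem from 1 culture. Signals are MAS5 signals on a linear scale, set by the authors to nearly the same mean on every array (2% trimmed mean of 1000.3 to 1000.4), so each value is relative to the RNA on its own array, and fewer cells cannot be told apart from less RNA per cell.

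Hepatocyte markers were bright, with 9 of 9 read above the filter on low signals and ALB (albumin) the brightest at a mean signal of 85989.6. Markers of other liver cells were dimmer than every hepatocyte marker read, the lowest of which had a mean of 4019.5. The filter was passed by 3 of 6 stellate cell markers (COL1A1 led at 774), 1 of 5 endothelial markers (PECAM1 at 286) and 0 of 4 macrophage markers. The 5 probe sets of GPLD1, the gene of GPI-PLD, had overlapping signals in GPI-PLD and LacZ cells at both times, with means over all arrays from 41.9 to 298. Whether they lie in the part of the gene that the virus carries is not given in the sources used here, so they do not check the virus labels, and the groups are called GPI-PLD and LacZ as labelled. Differences below are limma log2 differences of (signal + 63) with their standard error (SE), 63 being the 20th percentile over the whole table. A gene passed the test at a Benjamini-Hochberg adjusted p under 0.05 over the 8109 genes whose probe set had a mean signal of at least 208.5, and all 9 members with a probe set of their own were among them. Errors after signals are standard deviations (SD) over 4 arrays.

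IGFBP1 was the member with the clear change, and it changed with time in cells of both viruses. At 12 h its signals were 32910.2, 23107, 30568 and 29578 in GPI-PLD cells (mean 29041 ± 4196) and 31974, 34634, 28890.2 and 29288 in LacZ cells (mean 31196 ± 2669.5). At 6 h they were 15252, 12007, 12869.6 and 13382 in GPI-PLD cells (mean 13378 ± 1372) and 18372, 14838, 8138 and 12694 in LacZ cells (mean 13511 ± 4279). Every 12 h array lay above every 6 h array of either virus, with a gap between the lowest 12 h array and the highest 6 h array. IGFBP1 rose 2.15-fold with time in GPI-PLD cells (log2 1.11 ± 0.17, 95% interval 1.67 to 2.78-fold, adjusted p 0.000352) and 2.39-fold in LacZ cells (log2 1.26 ± 0.17, interval 1.86 to 3.09-fold, adjusted p 0.000105). The call held under all 27 alternatives run for either virus.

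The increase in IGFBP1 was not shown to differ between the viruses. The GPI-PLD effect at 12 h minus that at 6 h was -0.15 ± 0.25 on the log2 scale (95% interval -0.67 to 0.37, adjusted p 0.909). Within a time, GPI-PLD arrays overlapped LacZ arrays. The difference was -0.11 ± 0.17 at 12 h (interval 0.718 to 1.19-fold) and 0.04 ± 0.17 at 6 h (interval 0.797 to 1.33-fold), and averaged over both times it was -0.04 ± 0.12. These intervals bound the GPI-PLD effect on IGFBP1 at each time but do not show that it is absent.

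**Figure D1:**
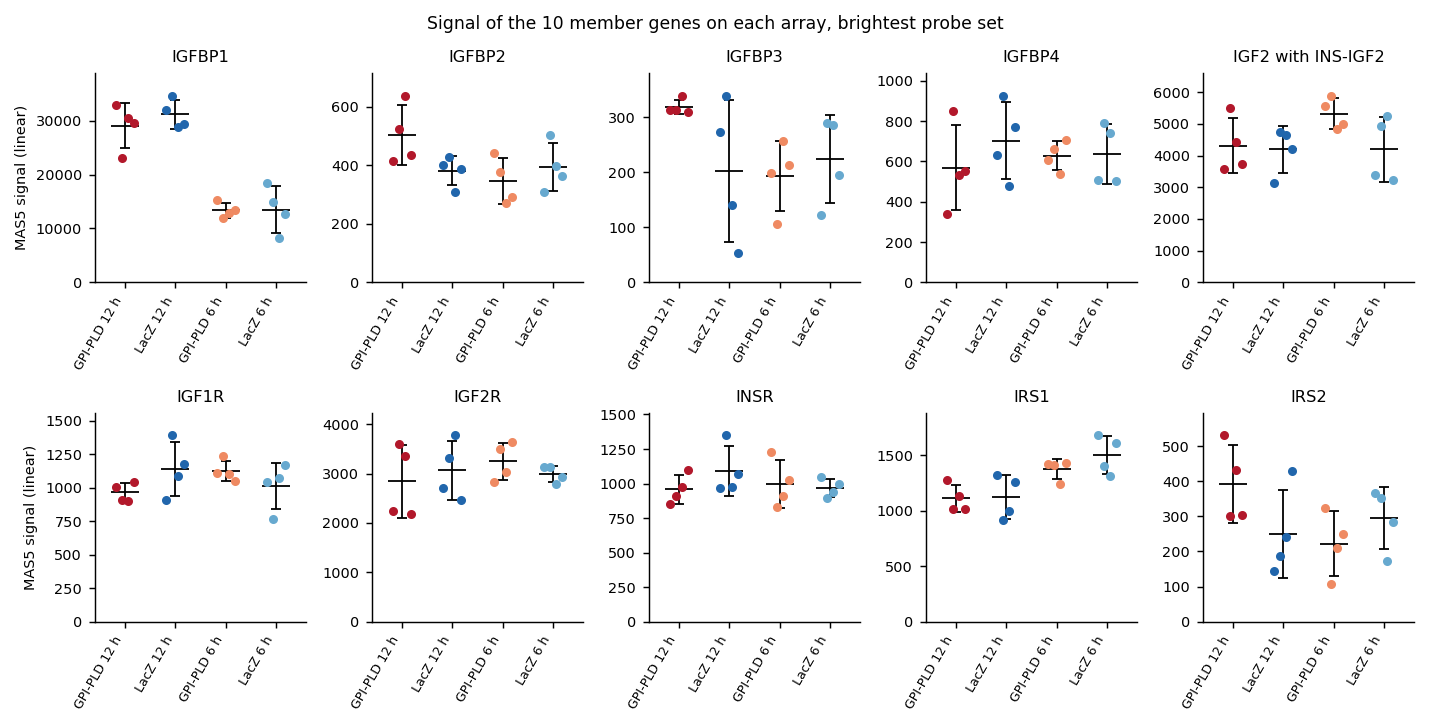
MAS5 signal (linear axis from 0) of the 10 members on every array, 1 panel per gene, from the brightest probe set of each (IGF2 is read with INS-IGF2). Points are arrays and black bars are the mean and SD of the 4 arrays of GPI-PLD 12 h, LacZ 12 h, GPI-PLD 6 h and LacZ 6 h. In the IGFBP1 panel both 12 h groups sit at 23107 to 34634 and both 6 h groups at 8138 to 18372, while in the other panels the 2 viruses overlap at each time, and the 12 h and 6 h arrays of a virus are apart only for IGFBP3 and IGF1R in GPI-PLD cells.

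By the rule fixed for likeness, the genes whose log2 signal followed IGFBP1 most closely over the 16 arrays were MNT, a MAX-binding repressor of transcription (Pearson r 0.971), CTH, cystathionine gamma-lyase, which makes cysteine (r 0.955), and CCDC59 (r 0.936). The arrays fall into 2 sets by time, which all 4 genes share. With the 4 group means removed, the r values were 0.822 for MNT, 0.662 for CTH and 0.565 for CCDC59, still over the same arrays and their shared scaling. These are descriptions of 16 arrays of 1 cell line, given with no test.

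The other binding proteins did not pass the test in either time comparison or in either virus comparison. IGFBP2, which binds IGF2 tightly and is made by fetal liver and by hepatomas, read 416, 523, 638.5 and 436 in GPI-PLD cells at 12 h and 400.4, 429.6, 310.5 and 389 in LacZ cells at 12 h. At 6 h it read 442, 378, 271 and 292 in GPI-PLD cells and 308, 505, 396 and 365 in LacZ cells. In GPI-PLD cells 2 of the 4 arrays of 12 h lay above all 4 arrays of 6 h, and the time difference was 0.47 ± 0.22 (interval 1.01 to 1.91-fold, unadjusted p 0.0427, adjusted p 0.198). In LacZ cells the time difference was -0.03 ± 0.22.

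IGFBP3, the main IGF carrier of blood, was dim. Its brighter probe set (210095_s_at) read 313, 312.5, 338 and 309 in GPI-PLD cells at 12 h, when LacZ cells read 273, 339, 139.8 and 53.4. Its 6 h signals were 198.5, 106, 256.5 and 214 in GPI-PLD cells and 123, 290.1, 286.5 and 196 in LacZ cells. The 4 GPI-PLD arrays of 12 h were close together and all above the GPI-PLD arrays of 6 h, but LacZ arrays of 12 h covered a wide range that held them. The difference of GPI-PLD over LacZ at 12 h was 0.68 ± 0.38 (interval 0.929 to 2.77-fold, adjusted p 0.719), or 0.34 without LacZ 12 h replicate 4, the dimmest array, and up to 0.93 with another array left out. The time difference in GPI-PLD cells was 0.61 ± 0.38 (adjusted p 0.36). Its other probe set (212143_s_at, mean signal 116) had the same signs with wider errors, 0.43 ± 0.47 and 0.37 ± 0.47.

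IGFBP4, a binding protein that mostly inhibits IGF action, averaged 569 ± 211 in GPI-PLD cells and 701 ± 191 in LacZ cells at 12 h, and 627.5 ± 72.3 in GPI-PLD cells and 636 ± 149.7 in LacZ cells at 6 h. Its time differences were -0.18 ± 0.23 in GPI-PLD cells and 0.12 ± 0.23 in LacZ cells, and the 4 groups overlapped.

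IGF2, the fetal growth factor that hepatomas often make, was read only together with INS-IGF2. The bright probe set (202409_at) averaged 4307 ± 872 in GPI-PLD cells and 4192 ± 733 in LacZ cells at 12 h. At 6 h it averaged 5318 ± 487 in GPI-PLD cells and 4200.0 ± 1027 in LacZ cells. The GPI-PLD arrays of 6 h had the highest mean and overlapped both the GPI-PLD arrays of 12 h and the LacZ arrays of 6 h. Over all 22215 probe sets outside the controls, limma gave a time difference of -0.32 ± 0.16 in GPI-PLD cells (adjusted p 0.345) and 0.01 ± 0.16 in LacZ cells. GPI-PLD over LacZ was 0.04 ± 0.16 at 12 h and 0.36 ± 0.16 at 6 h (interval 1.02 to 1.62-fold, unadjusted p 0.0337, adjusted p 0.9997). The 2 other shared probe sets were dim, with means of 93.8 (202410_x_at) and 108 (210881_s_at).

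Among the receptors no probe set used for a gene passed the test. IGF1R, the tyrosine kinase receptor of IGF1 and IGF2, read 1004, 910.3, 902 and 1039 in GPI-PLD cells at 12 h and 905, 1393, 1084 and 1176 in LacZ cells at 12 h. The 6 h arrays read 1111, 1234, 1099 and 1052 in GPI-PLD cells and 1040.0, 767, 1069 and 1172 in LacZ cells. Every GPI-PLD array of 12 h lay below every GPI-PLD array of 6 h, a difference of -0.21 ± 0.14 (adjusted p 0.404), whereas LacZ arrays overlapped (0.16 ± 0.14, adjusted p 0.595). At 12 h, GPI-PLD over LacZ was -0.21 ± 0.14 (interval 0.703 to 1.06-fold).

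The 3 IGF1R probe sets did not agree on the virus difference at 12 h. In the fit of all probe sets it was -0.21 ± 0.14 for 203627_at, -0.53 ± 0.36 for 203628_at and 0.93 ± 0.38 for 208441_at (unadjusted p 0.0248, adjusted p 0.685). The last one is dim, reading 206, 210.1, 368.5 and 192 in GPI-PLD cells against 30.4, 84.3, 168.5 and 132 in LacZ cells at 12 h. Those groups do not overlap, yet the brighter probe sets of the same gene stood lower in GPI-PLD cells, so the direction for IGF1R depends on the probe set.

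IGF2R, which has no kinase and clears IGF2 to the lysosome, was read by 2 bright probe sets. Its brighter set averaged 2846 ± 744 in GPI-PLD cells and 3067 ± 597 in LacZ cells at 12 h, and 3250 ± 381 in GPI-PLD cells and 2995 ± 169 in LacZ cells at 6 h. The virus difference at 12 h was -0.12 ± 0.15. The other set (201392_s_at) was tighter, reading 1735, 1866, 2318 and 1696 in GPI-PLD cells against 2286, 2265, 2106 and 2271 in LacZ cells at 12 h. There 3 of the 4 GPI-PLD arrays lay below all LacZ arrays and 1 lay above all of them, a difference of -0.23 ± 0.10 (unadjusted p 0.0321, adjusted p 0.706). At 6 h the same set leaned the other way, with overlapping groups. It averaged 2209 ± 47.6 in GPI-PLD cells and 2049 ± 105.5 in LacZ cells.

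INSR, the insulin receptor, averaged 957 ± 105 in GPI-PLD cells and 1090.0 ± 181 in LacZ cells at 12 h, and 997 ± 175 in GPI-PLD cells and 971 ± 64.8 in LacZ cells at 6 h. Differences were -0.17 ± 0.14 between the viruses at 12 h, -0.05 ± 0.14 with time in GPI-PLD cells and 0.15 ± 0.14 with time in LacZ cells. The second INSR probe set was dim (mean 182), and the sign of the time difference in GPI-PLD cells turned there (0.32 ± 0.31).

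**Figure D2:**
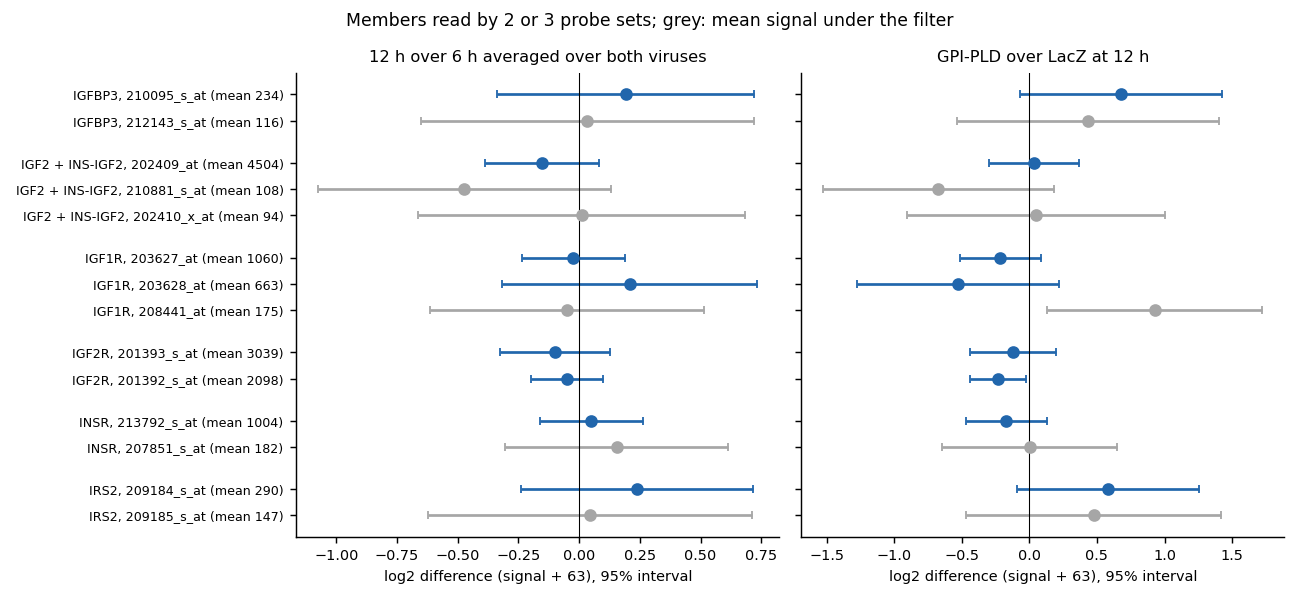
Log2 difference (signal + 63) with its 95% interval for each probe set of the 6 members read by 2 or 3 of them, over all 22215 probe sets; left, 12 h over 6 h averaged over both viruses, right, GPI-PLD over LacZ at 12 h. Blue points have a mean signal of at least 208.5 and grey points less. All intervals cross 0 except those of IGF1R 208441_at and IGF2R 201392_s_at in the right panel, where the dim IGF1R set at 0.93 lies opposite the 2 brighter sets at -0.21 and -0.53.

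IRS1, a docking protein for the activated insulin and IGF1 receptors, had lower means at 12 h than at 6 h in cells of both viruses. It read 1276, 1017.5, 1134.5 and 1016.5 in GPI-PLD cells and 1318, 914, 997.5 and 1256 in LacZ cells at 12 h. At 6 h the signals were 1419.6, 1410.1, 1243.5 and 1425.5 in GPI-PLD cells and 1682, 1403, 1316 and 1613 in LacZ cells. In each virus 3 of the 4 arrays of 12 h lay below all arrays of 6 h, and the highest 12 h array reached just into their range. The time difference was -0.30 ± 0.13 in GPI-PLD cells (adjusted p 0.172) and -0.41 ± 0.13 in LacZ cells (unadjusted p 0.00456, adjusted p 0.0598), so neither passed.

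Averaged over both viruses, a comparison added after these values were seen, IRS1 fell with time. The 8 arrays of 12 h ran from 914 through a median of 1076 to 1318, and the 8 of 6 h from 1243.5 through a median of 1415 to 1682. The difference was -0.35 ± 0.09 (1.28-fold lower, adjusted p 0.0093), and it passed under all 26 alternatives (adjusted p 0.0041 to 0.0259). In LacZ cells alone IRS1 passed under 5 of 27 alternatives, among them without LacZ 12 h replicate 1 (adjusted p 0.0385), and the adjusted p ran from 0.0267 to 0.205. Between the viruses IRS1 differed by -0.003 ± 0.13 at 12 h (interval 0.827 to 1.2-fold) and -0.12 ± 0.13 at 6 h (interval 0.763 to 1.11-fold).

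IRS2, the other substrate of liver and a gene that FOXO factors switch on when insulin is low, was dim and scattered. It read 532, 300.4, 433 and 303 in GPI-PLD cells at 12 h, when LacZ cells read 144.8, 187, 242 and 429. At 6 h it read 325, 106, 209 and 251 in GPI-PLD cells and 367, 353, 173 and 284.5 in LacZ cells. The GPI-PLD arrays of 12 h were the highest group, with 1 LacZ array of 12 h, 1 GPI-PLD array of 6 h and 2 LacZ arrays of 6 h inside their range. The difference was 0.58 ± 0.33 between the viruses at 12 h (interval 0.926 to 2.42-fold, adjusted p 0.732) and 0.70 ± 0.33 with time in GPI-PLD cells (adjusted p 0.212), against -0.23 ± 0.33 with time in LacZ cells. The test of the difference between these effects gave 0.93 ± 0.47 (unadjusted p 0.0622, adjusted p 0.677), so IRS2 was not shown to respond differently. Its other probe set (209185_s_at, mean 147) was below the filter and had the same signs at 0.47 ± 0.45, 0.53 ± 0.45 and -0.44 ± 0.45.

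Promoter windows of the 2 substrates are shown because IRS1 was the member that fell and IRS2 is known as a FOXO target. RefSeq windows on GRCh38.p14 run from 250 bases before to 50 after the start, and 8 of the 10 members had at least 1 such window, 10 in all. IGFBP1 and IGF2 had none in the table and were not searched. They were searched on both strands for CAAAACA and GTAAACA, forms of the FOXO site, TGATGNAA, the core of the site of ATF4 with C/EBP, and ACGTG, the core of the hypoxia and E-box-like sites. The IRS1 window lies at chr2:226799771-226800070 and that of IRS2 at chr13:109786534-109786833, both on the minus strand, read 5′ to 3′ with matches in capitals.
IRS1: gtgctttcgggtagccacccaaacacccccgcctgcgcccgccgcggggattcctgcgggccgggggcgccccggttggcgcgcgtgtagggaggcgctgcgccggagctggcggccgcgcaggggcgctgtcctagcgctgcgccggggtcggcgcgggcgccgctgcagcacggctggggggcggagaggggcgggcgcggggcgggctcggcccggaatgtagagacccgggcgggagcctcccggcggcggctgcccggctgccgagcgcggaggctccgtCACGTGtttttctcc
IRS2: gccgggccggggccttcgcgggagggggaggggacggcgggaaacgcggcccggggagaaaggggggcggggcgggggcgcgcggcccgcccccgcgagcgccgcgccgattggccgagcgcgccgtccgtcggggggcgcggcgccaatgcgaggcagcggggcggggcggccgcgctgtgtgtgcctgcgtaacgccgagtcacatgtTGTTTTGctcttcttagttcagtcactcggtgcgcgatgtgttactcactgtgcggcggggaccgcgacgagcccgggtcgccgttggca

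In IRS1 the capitals mark ACGTG on both strands, overlapping each other, from base 286 and base 287 of the window, past the start. In IRS2 they mark CAAAACA on the minus strand of the window from base 211. Of 35116 such windows, 21.4% held ACGTG and 4.92% CAAAACA, against 3.42% for GTAAACA and 3.62% for TGATGNAA, neither of which was found in the windows of the 8 members searched. Other members with ACGTG were IGF1R, IGF2R and 1 of the 3 IGFBP2 windows. A match describes these letters only and was not tested for binding.

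No member passed in a comparison of the viruses. Limma called 0 of 9 members in GPI-PLD over LacZ cells at 12 h, where 0% of all tested genes passed, 0 of 9 at 6 h, where 0% passed, and 0 of 9 averaged over both times, again with 0% of all genes. At an unadjusted p under 0.05 the count, in the 1 probe set used per gene, was 0 of 9 members at either time, with 584 of all genes at 12 h and 375 at 6 h, and moderation without trend and robust also called 0 members. Some member probe sets not used for a gene were under that level. They included IGF1R 208441_at and IGF2R 201392_s_at at 12 h and the shared IGF2 set 202409_at at 6 h. In the 1 probe set used per gene, no member had GPI-PLD and LacZ groups apart at 12 h, where 3.96% of all genes did, nor at 6 h, where 3.07% did. The difference of the 2 virus effects called 0 of 9 members and 0.0123% of all genes, which is the single gene TUBB2A, a beta tubulin (-0.89 ± 0.15, adjusted p 0.0376), named here because it was the only call.

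With time, 1 of 9 members rose in GPI-PLD cells and 1 of 9 in LacZ cells, IGFBP1 in both, and 0 fell. Among all genes 4.59% rose and 5.06% fell in GPI-PLD cells, and 3.64% rose and 3.26% fell in LacZ cells. Averaged over both viruses, 1 member rose (IGFBP1) and 1 fell (IRS1), beside 7.78% of all genes that rose and 8.4% that fell. Groups of 12 h and 6 h were apart for 3 of 9 members in GPI-PLD cells (IGFBP1, IGFBP3 and IGF1R), where 15.9% of all genes were, and for 1 in LacZ cells (IGFBP1), where 12.9% were. The median time difference of the 9 members was -0.047 in GPI-PLD cells and 0.015 in LacZ cells, and over all genes it was 0.013 and 0.005.

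**Figure D3:**
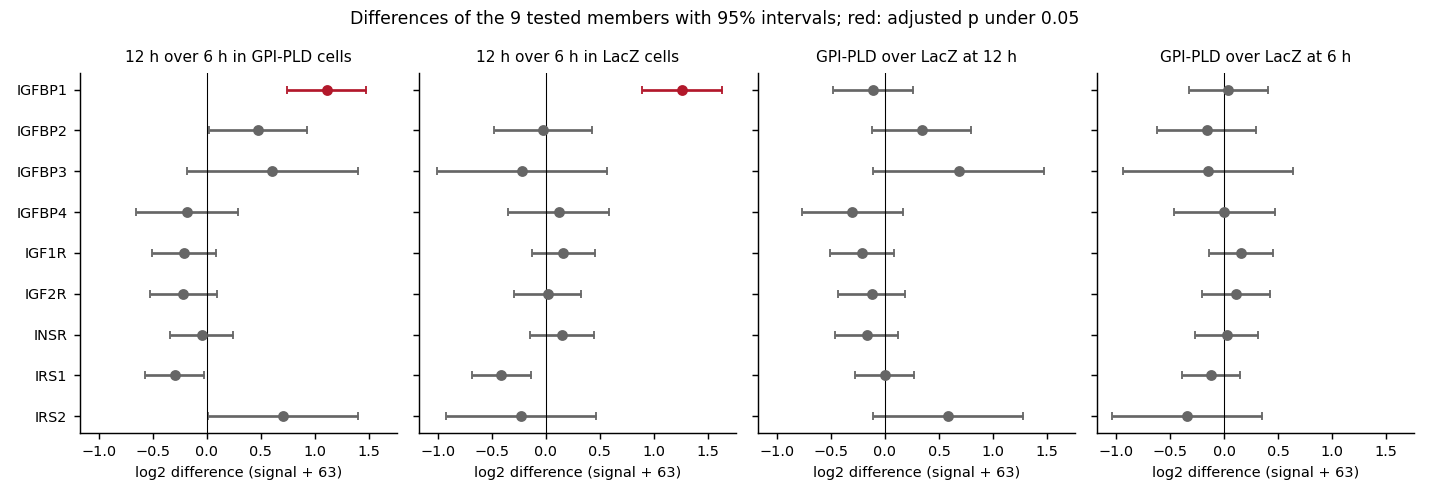
Log2 difference (signal + 63) of the 9 tested members with 95% intervals, in 4 panels: 12 h over 6 h in GPI-PLD cells, 12 h over 6 h in LacZ cells, GPI-PLD over LacZ at 12 h and GPI-PLD over LacZ at 6 h. Red points passed at an adjusted p under 0.05. IGFBP1 at 1.11 and 1.26 is red in both time panels and near 0 in both virus panels, and no other point is red.

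The wider pathway was described through 95 further genes of 11 lists, 79 of them on the array and 70 tested. In the virus comparisons limma called 0 of the 70 at 12 h and 0 at 6 h, where 0% of all genes passed at either time. At an unadjusted p under 0.05 they numbered 3 at 12 h and 8 at 6 h, beside 584 and 375 of all 8109 genes. With time, 8 rose and 3 fell in GPI-PLD cells, where 4.59% of all genes rose and 5.06% fell, and 7 rose and 2 fell in LacZ cells, where 3.64% rose and 3.26% fell. Averaged over both viruses 11 rose and 4 fell, beside 7.78% and 8.4% of all genes, and the count of 15 ran from 12 to 15 over the 26 alternatives. Their median time difference was 0.02 in GPI-PLD cells and 0.06 in LacZ cells, beside 0.01 and 0.00 over all genes.

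DDIT4, TRIB3 and STC2 rose most with time among these genes in cells of both viruses. DDIT4 (REDD1), which restrains mTORC1, read 9953, 10949, 8835 and 9099.5 in GPI-PLD cells and 9194, 9240.5, 10453 and 8751 in LacZ cells at 12 h. Its 6 h signals were 2041, 3322, 4332 and 2399 in GPI-PLD cells and 1920.4, 1973, 2363 and 2885 in LacZ cells. No 12 h array came near the 6 h range. DDIT4 rose 3.29-fold in GPI-PLD cells (log2 1.72 ± 0.17, adjusted p 5.36e-07) and 4.08-fold in LacZ cells (2.03 ± 0.17, adjusted p 5.99e-08). It was 1 of 3 genes of the mTORC1 list that changed in GPI-PLD cells and 1 of 2 in LacZ cells, out of 13 tested. Of all genes, 4.59% rose and 5.06% fell in GPI-PLD cells, and 3.64% rose and 3.26% fell in LacZ cells. In GPI-PLD cells RPS6KB1, the S6 kinase, rose (0.66 ± 0.18, a call lost under 8 of 27 alternatives), beside 0.37 ± 0.18 in LacZ cells. EIF4EBP2, a repressor of cap-dependent translation, fell in GPI-PLD cells (-0.48 ± 0.13, lost under 4), beside -0.36 ± 0.13 in LacZ cells. EIF4EBP1, a repressor of the same family, stood at 0.34 ± 0.12 in GPI-PLD cells and rose in LacZ cells (0.53 ± 0.12). No difference between the viruses passed for these genes (adjusted p 0.818 for RPS6KB1, 0.899 for EIF4EBP2 and 0.831 for EIF4EBP1), and averaged over both viruses all 3 passed (0.51 ± 0.13, -0.42 ± 0.09 and 0.44 ± 0.09). The averaged EIF4EBP2 call was lost under 1 of 26 alternatives, the mean of its probe sets (-0.40, adjusted p 0.102).

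TRIB3, a pseudokinase that can bind AKT, read 19918, 20102, 21062 and 22143 in GPI-PLD cells and 16727, 19262, 17686 and 18508 in LacZ cells at 12 h. The 6 h arrays read 8818, 8437, 8723 and 9184 in GPI-PLD cells and 6686.5, 8101, 8338 and 6439 in LacZ cells. It rose 2.36-fold with time in GPI-PLD cells (1.24 ± 0.08, adjusted p 3.92e-10) and 2.44-fold in LacZ cells (1.29 ± 0.08, adjusted p 2.36e-10). At each time every GPI-PLD array of TRIB3 lay above every LacZ array. The viruses were apart in either direction for 3.96% of all genes at 12 h and 3.07% at 6 h. TRIB3 passed in neither virus comparison. ENPP1, a membrane enzyme that inhibits the insulin receptor, rose 1.83-fold in GPI-PLD cells (0.87 ± 0.12) and 1.67-fold in LacZ cells (0.74 ± 0.12), while its dim second probe set gave 0.39 ± 0.33 and 0.20 ± 0.33. Of 14 tested receptor brakes, 3 rose and 1 fell in GPI-PLD cells (4.59% and 5.06% of all genes), where GRB10, an adaptor that inhibits both receptors, rose (0.62 ± 0.18) and PTPRF, the LAR phosphatase, fell. In LacZ cells 2 rose, TRIB3 and ENPP1, and 0 fell (3.64% and 3.26% of all genes). The GRB10 call was lost under 9 of 27 alternatives. GRB10 stood at 0.15 ± 0.18 in LacZ cells, where its 2 next probe sets gave 0.41 ± 0.20 and 0.57 ± 0.25, and the difference between the viruses was 0.47 ± 0.25 (adjusted p 0.703).

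PTPRF read 1259.5, 1213, 1278.5 and 1129 in GPI-PLD cells at 12 h, below the 1944, 2254, 2129 and 2429 of GPI-PLD cells at 6 h. It fell 1.75-fold there (-0.81 ± 0.12, adjusted p 5.49e-05), with its 3 other probe sets at -0.55, -0.56 and -0.39. In LacZ cells it read 1330.5, 1495, 1660 and 1355 at 12 h and 1815, 1773, 1527 and 2236 at 6 h. At 12 h every GPI-PLD array lay below every LacZ array, where 3.96% of all genes had the viruses apart in either direction. At 6 h the viruses overlapped. The time difference of PTPRF in LacZ cells was -0.31 ± 0.12 (adjusted p 0.126). The test of the difference between the viruses gave -0.50 ± 0.17 (adjusted p 0.463), so the fall was not shown to differ between them.

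STC2, a stanniocalcin that inhibits the protease PAPP-A and so protects IGFBP4 from cleavage, read 1843, 2593, 1888 and 2085.5 in GPI-PLD cells and 2032, 1994, 2458 and 1938 in LacZ cells at 12 h. At 6 h the signals were 722, 957, 993 and 961 in GPI-PLD cells and 929, 875, 1157 and 961 in LacZ cells. It rose 2.23-fold in GPI-PLD cells (1.15 ± 0.13, adjusted p 2.32e-06) and 2.08-fold in LacZ cells (1.06 ± 0.13, adjusted p 9.03e-06), and its second probe set rose by 1.36 ± 0.16 and 0.98 ± 0.16. It was the only 1 of 4 tested proteases and inhibitors to pass, beside 4.59% of all genes that rose in GPI-PLD cells and 3.64% in LacZ cells. Among the 4 other binding proteins tested, IGFBP7, a low-affinity relative, fell in LacZ cells (-0.87 ± 0.21, adjusted p 0.00934), where 3.26% of all genes fell. Its signals there were 345, 438, 474 and 498 at 12 h against 806, 825, 749 and 1036 at 6 h. In GPI-PLD cells it stood at -0.44 ± 0.21 (adjusted p 0.201), and in LacZ cells its 2 dim probe sets gave -0.21 ± 0.40 and -0.02 ± 0.40. At 6 h every GPI-PLD array of IGFBP7 (544 to 748) lay below every LacZ array. The viruses were apart there in either direction for 3.07% of all genes, and IGFBP7 did not pass.

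FOXO targets of the liver did not move in 1 direction. Of 8 tested beside the members, 2 rose (BCL6, a repressor, at 0.39 ± 0.12, and TAT, tyrosine aminotransferase, at 0.83 ± 0.21) and 1 fell in GPI-PLD cells, and 1 rose (BCL6 at 0.46 ± 0.12) and 1 fell in LacZ cells. Shares over all genes were 4.59% up and 5.06% down in GPI-PLD cells, and 3.64% up and 3.26% down in LacZ cells. The BCL6 call in GPI-PLD cells was lost under 11 of 27 alternatives, and its second bright probe set gave 0.10 ± 0.16 there and 0.51 ± 0.16 in LacZ cells. TAT stood at 0.51 ± 0.21 in LacZ cells (adjusted p 0.176), and its other probe set, with a mean of 58.8, gave 0.20 ± 0.34 in GPI-PLD cells and 0.17 ± 0.34 in LacZ cells. At 12 h every GPI-PLD array of TAT (547 to 762) lay above every LacZ array (394 to 525). The viruses were apart there in either direction for 3.96% of all genes, and TAT did not pass. The gene that fell was TXNIP, a thioredoxin inhibitor whose transcription glucose raises, which read 602, 842, 763.5 and 733 in GPI-PLD cells and 373, 421, 790.4 and 556 in LacZ cells at 12 h. At 6 h it read 1315, 1261.5, 1081 and 865 in GPI-PLD cells and 1266, 1244, 1376 and 1275 in LacZ cells. It fell 2.34-fold in LacZ cells (-1.23 ± 0.18, adjusted p 6.71e-05). In GPI-PLD cells it fell 1.49-fold (-0.57 ± 0.18, adjusted p 0.0455), a call lost under 15 of 27 alternatives (adjusted p up to 0.136). The order of the viruses depends on the probe set. A TXNIP set with a mean signal of 496 gave -1.64 ± 0.31 in GPI-PLD cells (adjusted p 0.00279 over all probe sets) and -1.09 ± 0.31 in LacZ cells (adjusted p 0.0699), and one with a mean of 841 gave -0.36 ± 0.19 in GPI-PLD cells and -0.60 ± 0.19 in LacZ cells. The test of the difference between the viruses gave 0.65 ± 0.25 for the set used (adjusted p 0.526), so the fall was not shown to differ.

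None of 12 tested genes of the PI3-kinase and AKT arm, 9 other substrates and adaptors and 2 IGF2 mRNA binding proteins passed within either virus. Averaged over both viruses, the comparison added after values were seen, 2 of them rose, beside 7.78% of all genes. They were FOXO3, a FOXO factor of that arm (0.33 ± 0.08, adjusted p 0.00744), and SHC1, an adaptor of activated receptors (0.28 ± 0.07, adjusted p 0.0101). Both calls held under all 26 alternatives. Of 4 tested genes of the RAS and ERK arm, MAPK3 (ERK1) rose in LacZ cells at 0.84 ± 0.24 (adjusted p 0.034), where 3.64% of all genes rose. Its signals there were 986, 628, 873 and 915 at 12 h against 489.5, 614, 545 and 219 at 6 h. That call was lost under 7 of 27 alternatives, among them without LacZ 6 h replicate 4 or without LacZ 12 h replicate 1, 3 or 4 (adjusted p 0.0751 to 0.133). In GPI-PLD cells it stood at -0.02 ± 0.24, and the difference between the viruses was -0.87 ± 0.34 (adjusted p 0.527).

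**Figure D4:**
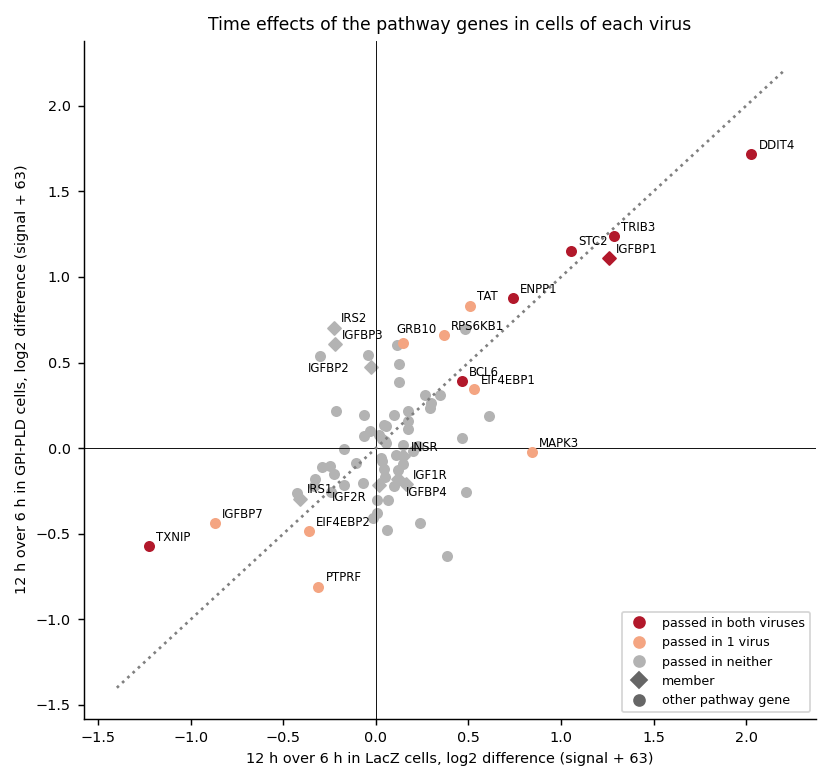
Time effect of each tested member (diamonds) and other pathway gene (circles), as log2 difference (signal + 63) of 12 h over 6 h, in LacZ cells (horizontal) and in GPI-PLD cells (vertical), with a dotted line where both are equal. Dark red passed in both viruses, light red in 1 and grey in neither. DDIT4, TRIB3, IGFBP1, STC2 and ENPP1 lie together at the upper right near the line, TXNIP lies at the lower left, and most of the other genes sit around 0.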

How the data were processed

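The authors deposited 1 MAS5 signal (a linear intensity) per probe set and array, per the submitters' processing notes. Any further step is not given in the sources used here. Groups came from the labels, and replicates were numbered in deposited order.

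Probe sets with 1 gene symbol numbered 19065, with several 1043 and with none 2107, and 68 controls were left out of the tests. Each gene was read by its brightest probe set with 1 symbol. Limma 3.58.1 (statmod 1.5.0, R 4.3.3) fitted log2(signal + 63) over all 16 arrays and 4 groups, with eBayes using trend and robust, 12 residual degrees of freedom and a median prior of 10.6, and was tested on simulated data. Planned contrasts were the virus effect at each time, averaged, its difference between times, and the effect of time under each virus; the time effect averaged over both viruses was added after values were seen. A fit of all 22215 probe sets covered every member probe set.

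Other pathway genes were named if they were among the 4 in a direction with the largest difference among calls whose groups do not overlap. BCL6, EIF4EBP1, FOXO3, GRB10, RPS6KB1, SHC1 and TAT, called too, are outside that rule and were named after their values were seen. The members and gene lists were chosen with earlier results of these data known. The number of arrays limits the precision. Alternatives covered scaling, pseudocount, filter, the probe sets read, moderation, array weights, the arrays fitted and leaving out each array. Tables were read with pandas 2.3.3 and drawn with matplotlib 3.10.9.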

Additional observations from a re-analysis of the deposited data

Results flagged for a closer look

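In 72 groups of 4 arrays (18 member probe sets in 4 groups), 1 array stood apart from the others in 9, by a gap to its nearest neighbour larger, as a share of the group's range, than Dixon's critical value, and chance gives about 1 in 20. Among the probe sets read for a gene, IRS1 had its lowest GPI-PLD 6 h array in replicate 3 (signal 1243.5, gap 0.92 of the range), and IGFBP3 had its highest GPI-PLD 12 h array in replicate 3 (338, gap 0.864), in a group whose whole range was 309 to 338. The tighter IGF2R set 201392_s_at was lowest in LacZ 12 h replicate 3 (2106, gap 0.884).

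The other 6 were in dim probe sets. GPI-PLD 12 h replicate 3 was the highest for IGF1R 208441_at (368.5, gap 0.871) and for the IGF2 and INS-IGF2 set 202410_x_at (281, gap 0.875), whose LacZ 12 h replicate 2 was also apart (257, gap 0.91). INSR 207851_s_at was lowest in LacZ 6 h replicate 4 (127, gap 0.988). IRS2 209185_s_at was lowest in LacZ 12 h replicate 2 (18.1, gap 0.854) and in LacZ 6 h replicate 4 (58.6, gap 0.905).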

How the results depend on the processing

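IGFBP1 with time in each virus, IRS1 with time over both viruses and the 0 members and 0 other pathway genes called in each virus comparison kept their call under every alternative run. The count of members called with time in LacZ cells was 2 under quantile normalization, scaling to the 75th percentile, the filter at the 60th percentile and array weights, since IRS1 then passed, and 1 to 2 with an array left out (2 without LacZ 12 h replicate 1). Other pathway genes called with time in GPI-PLD cells fell to 7 over all probe sets, where more tests are adjusted for, and ran from 6 to 11 with an array left out (6 without GPI-PLD 12 h replicate 1, and 7 without GPI-PLD 12 h replicate 2 or GPI-PLD 6 h replicate 2 or 3). Time calls in GPI-PLD cells were lost for TXNIP under 15 alternatives, BCL6 under 11, GRB10 under 9, RPS6KB1 under 8, EIF4EBP2 under 4 and TAT under 2, with no change of sign. In LacZ cells those of MAPK3 were lost under 7, BCL6 under 3 and IGFBP7 under 1, the mean of its probe sets (adjusted p 0.353).

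Signs turned only for differences that had not passed, and the cause was not tested. For GPI-PLD over LacZ at 12 h, IRS1 turned to 0.0108 under quantile normalization, 0.0125 under scaling to the 75th percentile and 0.0234 with array weights, and IGF1R to 0.0616 with the mean of its probe sets. At 6 h, IGFBP4 turned to -0.00691 under quantile normalization, -0.0202 under scaling to the 75th percentile and -0.00136 with 4 times the pseudocount, INSR to -0.150 with the mean of probe sets and -0.00538 with array weights, and IGFBP1 to -0.0574 with array weights. With time, IGF2R in LacZ cells turned to -0.035 under scaling to the 75th percentile, and with the mean of probe sets IGF1R turned to 0.04997 and INSR to 0.135 in GPI-PLD cells, and IGF1R to 0.044 over both viruses.

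With 1 array left out, GPI-PLD over LacZ at 6 h ranged from -0.18 to 0.21 for IGFBP1, -0.34 to 0.0382 for IGFBP3, -0.0886 to 0.11 for IGFBP4 and -0.0767 to 0.10 for INSR, and IRS1 at 12 h from -0.0906 to 0.0758. The averaged IGFBP1 effect ranged from -0.15 to 0.0481 and its difference between times from -0.32 to 0.0706. With time in LacZ cells the ranges were -0.0907 to 0.11 for IGF2R, -0.12 to 0.0849 for IGFBP2, -0.48 to 0.12 for IGFBP3 and -0.0156 to 0.27 for IGFBP4. In GPI-PLD cells they were -0.38 to 0.0118 for IGFBP4 and -0.13 to 0.0536 for INSR, and over both viruses -0.0835 to 0.0256 for IGF1R, -0.13 to 0.0659 for IGFBP4 and -0.00102 to 0.10 for INSR. No paired analysis was possible because the labels give no replicate numbers. Signal near the pseudocount limits IGFBP3 and IRS2, the dimmest members tested.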
